A study of Homo sapiens with 4 samples.

Results

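The levels of 7 mucin genes (MUC1, MUC4, MUC5AC, MUC5B, MUC13, MUC16 and MUC20) and 3 trefoil factor genes (TFF1, TFF2 and TFF3) were followed in 4 mRNA sequencing libraries of PK-1, a human cell line derived from a well-differentiated pancreatic ductal adenocarcinoma. These 10 genes, out of 53826 listed entities (genes by symbol and Entrez Gene identifier), were chosen by their part in gland-type secretion and by the measured difference in TFF1 between the 2 control libraries. All of them were found in the tables, with 1 row each. The difference in TFF1 between the controls is therefore a description of what chose the genes.

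The stable SPRR1A cells had received a pMXs retroviral vector with FLAG-tagged SPRR1A, a small proline-rich protein of squamous epithelia, and the stable DsRed cells had received the same kind of vector with a red fluorescent protein. The transient SPRR1A cells had been transfected with a pCAG plasmid carrying FLAG-tagged SPRR1A, and the transient GFP cells with a pCAG plasmid carrying a green fluorescent protein, with RNA isolated on the second day. Each condition had 1 library. No difference below therefore has a replicate check, no p-value is given, and vector, fluorescent protein, transfection, culture history and library batch cannot be told apart between the stable and the transient cells.

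Mucins are long glycoproteins whose repeats, rich in serine and threonine, carry dense O-linked sugar chains. MUC5AC and MUC5B are secreted and form the mucus gel, whereas MUC1, MUC4, MUC13, MUC16 and MUC20 are held in the cell membrane. Trefoil factors are small secreted peptides that are released together with mucins and take part in the protection and repair of mucosal surfaces: TFF1 is known from the surface cells of the stomach, where it accompanies MUC5AC, TFF2 from the deeper mucous cells of the stomach, and TFF3 from intestinal goblet cells. In the pancreas, MUC5AC and TFF1 are known from precursor lesions and from the gland-forming type of ductal adenocarcinoma.

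Levels are given as the deposited log2 of the TPM, a unit per transcript length in which each library sums to 1000000, so that levels of different genes can be set side by side. The lowest value in each table is 0, so that a TPM up to 1 and a TPM of 0 look the same. In each library, 24.1% to 25.2% of the entities were above that floor. SPRR1A, the introduced gene, was at 10.93 with SPRR1A and 0.75 with DsRed in the stable cells, and 16.60 with SPRR1A and 3.56 with GFP in the transient cells, in the direction of the labels. The number of reads per library is unknown. As to cell type, 6 of 6 epithelial markers were above the floor, with KRT7 between 12.20 and 12.82. Defining genes of other cells were at 0 in all 4 libraries, among them PTPRC of leukocytes, DCN of fibroblasts, PECAM1 of endothelium, INS of islets and CPA1 of acinar cells. The markers above 0 were 1 of 8 acinar, 0 of 5 endocrine, 1 of 6 fibroblast, 2 of 6 immune and 0 of 4 endothelial genes.

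The larger share of these genes was at or near the floor. MUC4, MUC5B, MUC13, TFF2 and TFF3 were listed at 0 in all 4 libraries, and the other 5 genes were above the floor in at least 1 library. MUC20 and MUC16 were the 2 genes above it in every library. The number of genes above 0 was 4 in each of the stable SPRR1A, stable DsRed and transient SPRR1A libraries and 3 in transient GFP cells. At this floor a gene of very low level cannot be told apart from one that is not transcribed.

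**Figure D1:**
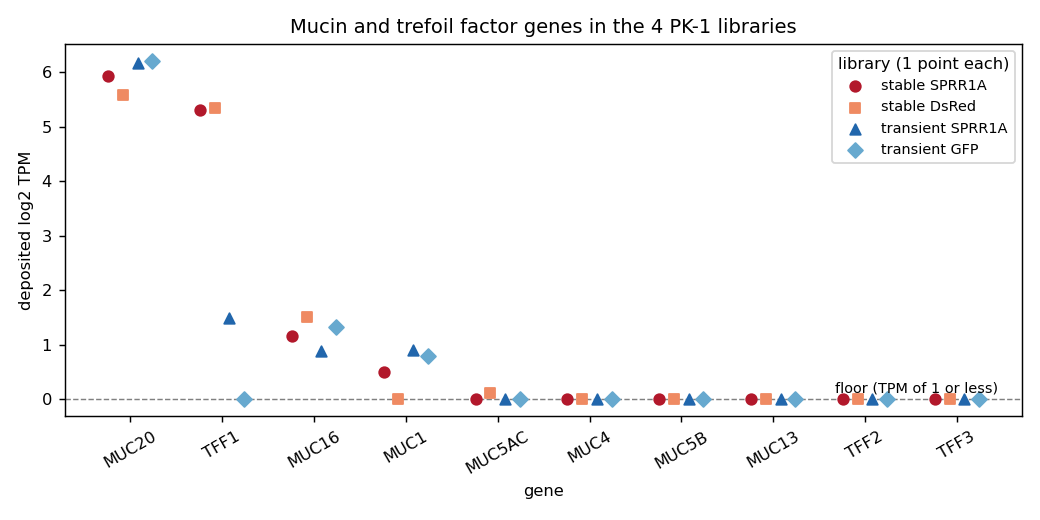
Deposited log2 TPM (vertical axis) of the 10 genes (horizontal axis), with 1 point per library and the floor as a dashed line. MUC20 lies between 5.58 and 6.21 in all libraries, while TFF1 is above 5 in the 2 stable libraries and at 1.49 and 0 in the transient ones.

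MUC20, a membrane mucin known to associate with the receptor MET, was the most abundant of the 10 genes in every library. Its log2 TPM was 5.94 with SPRR1A and 5.58 with DsRed in the stable cells, and 6.17 with SPRR1A and 6.21 with GFP in the transient cells, or a TPM of 61.4, 47.8, 71.8 and 74.1. The lowest of these values was the stable control and the 2 transient values lay above both stable ones. The share of all entities separated in this way was not computed. Over all entities above the floor the median of transient minus stable was also positive for the controls (0.18), though not for the SPRR1A libraries (-0.08). Within its library MUC20 was above 75.4% to 84.1% of the entities that passed the floor.

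TFF1 was next in level in the stable cells. There its log2 TPM was 5.31 with SPRR1A and 5.35 with DsRed, or a TPM of 39.5 and 40.7, which placed it 0.63 and 0.23 below MUC20 on the log2 scale. It was 1.49 in transient SPRR1A cells, a TPM of 2.82, and was listed at 0 in transient GFP cells. The stable and the transient values did not overlap, though the share of all entities without overlap was not computed. Of 13538 entities other than small RNAs, 23 had a lower stable value more than 1 above their higher transient value. In bulk RNA, fewer cells that express TFF1 and less TFF1 RNA per cell cannot be told apart. Of the summed TPM of the genes above the floor, TFF1 made up 37.8% (SPRR1A) and 44.0% (DsRed) in the stable cells and 3.60% in transient SPRR1A cells, where MUC20 made up 91.6%.

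MUC16, the membrane mucin that carries the serum marker CA125, stayed close to the floor. Its log2 TPM was 1.16 with SPRR1A and 1.51 with DsRed in the stable cells, and 0.89 with SPRR1A and 1.33 with GFP in the transient cells. In each model the SPRR1A library had the lower value.

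MUC1, the membrane mucin of most glandular epithelia, was at 0.51 with SPRR1A and 0 with DsRed in the stable cells, and 0.90 with SPRR1A and 0.80 with GFP in the transient cells. In no library did it exceed a TPM of 1.87. MUC16 was above MUC1 in 3 of the libraries, whereas in transient SPRR1A cells the log2 values of 0.90 for MUC1 and 0.89 for MUC16 were almost equal, so that no order of the pair can be given without replicates.

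MUC5AC was above 0 only in stable DsRed cells, at 0.12, a TPM of 1.09. It was listed at 0 in the other 3 libraries.

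The genes were placed on GRCh38, the build the authors used (hg38), by the RefSeq annotation of its patch 14, in which all 10 are protein-coding. The trefoil factors lie together on chromosome 21, TFF3 from 42311667 to 42315409, TFF2 from 42346357 to 42350994 and TFF1 from 42362282 to 42366535. TFF2 and TFF3, 11288 and 46873 bp from TFF1, were at 0 in each library in which TFF1 was expressed. Of the 7 listed entities within 100 kb of TFF1, only ABCG1, a cholesterol exporter, was above the floor. It was at 2.31 (SPRR1A) and 2.18 (DsRed) in the stable and 2.37 (SPRR1A) and 2.72 (GFP) in the transient cells, so it was not lower in the transient cells. The other entities of this window were at 0, including LOC105372815, which overlaps TFF1.

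MUC20 (chromosome 3, from 195720978 to 195733551) and MUC4 (from 195746771 to 195811929) are 13220 bp apart, with MUC20 the highest of the 10 genes and MUC4 at 0. MUC5AC (chromosome 11, from 1157953 to 1201138) and MUC5B (from 1223066 to 1262172) are also neighbors. MUC13 is on chromosome 3 from 124905442 to 124934751, MUC1 on chromosome 1 from 155185824 to 155192915 and MUC16 on chromosome 19 from 8848844 to 9065751.

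The transcripts differ in how well reads can be assigned to them. In the GENCODE 44 transcripts, 0 of the 462 stretches of 31 nt in TFF1 (1 transcript, 492 nt) occur in a transcript of another gene. The share was also 0 for MUC13, MUC16 and TFF3, and was at most 1.92% for MUC1, MUC4, MUC5AC, MUC5B and TFF2. MUC20 was the exception, with 36.0% of 6331 stretches found elsewhere, of which transcripts of MUC20-OT1 hold 27.4% and those of the pseudogene MUC20P1 14.8%. MUC20P1 was listed at 0 in all 4 libraries, whereas no level is given here for MUC20-OT1, which shares more with MUC20. How the alignment divided shared reads is not given in the sources used here, so the level of MUC20 is less certain than that of TFF1.

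The RefSeq table of promoters holds MUC1, MUC4, MUC13 and MUC16, but not MUC5AC, MUC5B, MUC20, TFF1, TFF2 or TFF3. The 60 bases directly before the outermost annotated start are shown for these 4 genes, since 2 of them (MUC1 and MUC16) passed the floor and 2 (MUC4 and MUC13) did not. All lie on the minus strand of GRCh38.p14 and are printed 5′ to 3′ along the gene, at chr1:155192916-155192975 for MUC1, chr19:9065752-9065811 for MUC16, chr3:195811930-195811989 for MUC4 and chr3:124934752-124934811 for MUC13. Capitals mark the motif TATAAA.
MUC1: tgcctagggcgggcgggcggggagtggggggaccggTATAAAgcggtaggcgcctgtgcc
MUC16: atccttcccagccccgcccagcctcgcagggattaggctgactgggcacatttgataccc
MUC4: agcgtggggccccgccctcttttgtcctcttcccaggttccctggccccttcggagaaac
MUC13: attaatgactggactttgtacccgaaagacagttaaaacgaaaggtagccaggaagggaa

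Of the 4, MUC1 alone had TATAAA on either strand of its window of 250 bases before to 50 after the start, beginning 24 bases before the start. This motif is held by 11.5% of the 35116 promoters of the table. TGANTCA, which 7.71% of all promoters hold, was found 178 bases before the start of MUC13 and 136 bases before a second, inner start of MUC16. TGTTTAC (3.42% of promoters), AGATAA (10.3%) and the palindromic estrogen response element (0.0570%) were in none of the windows of these genes.

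Whether SPRR1A overexpression changed these genes was compared first within the stable model. The log2 difference between stable SPRR1A and stable DsRed cells was 0.36 for MUC20, -0.04 for TFF1, -0.36 for MUC16, 0.51 for MUC1 and -0.12 for MUC5AC. With a 2-fold change (a log2 difference above 1 or below -1) as the threshold, 0 of these 5 genes passed, against 0.947% of 13310 entities (those above the floor with SPRR1A, with DsRed or with both). Their median difference was -0.04, against 0.07 over all those entities. The values of MUC1 and MUC5AC rest on a listed 0 in one of the libraries.

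In the transient model TFF1 was the 1 gene past the threshold. Listed at 0 with GFP, it reached 1.49 with SPRR1A, so the difference of the listed values was 1.49. Only SPRR1A ranked above it among the entities other than small RNAs. Past the 2-fold threshold in either direction were 0.889% of the 13717 entities above the floor, and 0.19% were higher in SPRR1A cells. The call for TFF1 was lost under log2(TPM + 1), where the difference was 0.93.

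The other genes of the transient model stayed within the threshold. The log2 difference was -0.05 for MUC20, 0.11 for MUC1 and -0.44 for MUC16, and MUC5AC was at 0 in both libraries. The median over the 4 genes above the floor was 0.03, against -0.19 over all entities above it, as most values of the transient SPRR1A library were lower: over well expressed entities, that is those reaching a TPM of 5 in each library compared, the median log2 difference was -0.18. Relative to this median, MUC20 was 0.14 higher in transient SPRR1A cells rather than 0.05 lower, MUC1 was 0.29 higher, MUC16 was 0.26 lower (relative value -0.26) and TFF1 was 1.68 higher. The TPM total of that library includes SPRR1A itself, at a log2 TPM of 16.60. With SPRR1A left out of the total, the log2 difference was 0.10 for MUC20, 0.26 for MUC1, -0.29 for MUC16 and 1.64 for TFF1.

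Set side by side, MUC16 had a lower value with SPRR1A in both models (-0.36 and -0.44). MUC1 had a higher value in both (0.51 and 0.11). All these differences concern values below a TPM of 3. The log2 differences of the well expressed entities had an SD of 0.17 in stable and 0.13 in transient cells, which is no scale for values this low. Past 2-fold in stable cells were 0.0915% of the well expressed entities, against 0.947% of all entities above the floor. In transient cells these shares were 0.0591% and 0.889%.

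**Figure D2:**
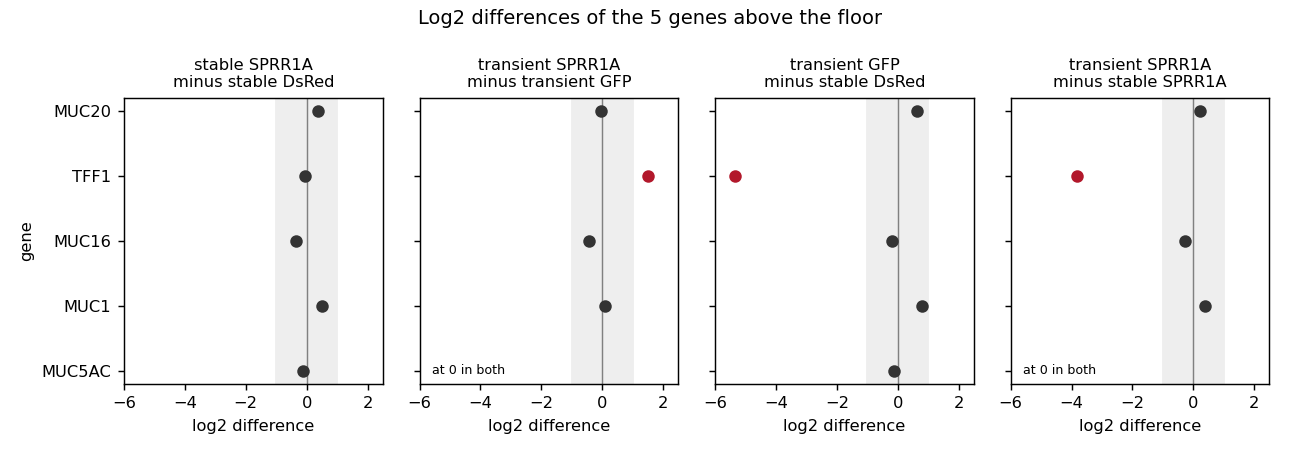
Log2 difference (horizontal axes) of the 5 genes above the floor (vertical axis) in 4 comparisons of 1 library with 1 library, with the 2-fold range shaded and genes past it in red. TFF1 is past it in 3 of the comparisons, at 1.49, -5.35 and -3.81, and the 4 mucins stay inside in each.

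Between the models, TFF1 stood far from the other genes. In the controls its log2 TPM was 5.35 in stable DsRed cells, whereas it was listed at 0 in transient GFP cells. This gave the lowest difference of all 53826 entities, and the next, for the small nucleolar RNA SNORD141A, was -3.22. In this contrast 7.52% of the 13761 entities above the floor were past the threshold and 0.661% were lower in GFP cells. Since this value chose the gene, it is given as a description.

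The 2 SPRR1A libraries gave a difference of the same sign. They differ by model and kind of vector as do the controls by which the genes were chosen, so this is no independent check. TFF1 was at 5.31 in stable and 1.49 in transient SPRR1A cells, a log2 difference of -3.81, or a 14.0-fold lower level in the transient cells. Past the threshold were 3.59% of the 13549 entities above the floor, and 0.974% were lower in the transient library. TFF1 had the third lowest difference, after IPO11-LRRC70 (-4.33) and LOC100129931 (-4.03), which were both at 0 in stable DsRed as well as transient SPRR1A cells.

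The mucins differed less between the models. MUC20 was higher in transient cells, with a log2 difference of 0.63 for the controls and 0.23 for the SPRR1A libraries, or 1.55-fold and 1.17-fold. MUC1 was at 0.80 in transient GFP and 0 in stable DsRed cells, and its difference was 0.40 between the SPRR1A libraries. MUC16 was lower in transient cells by both comparisons (-0.18 and -0.27). MUC5AC, at 0.12 in stable DsRed cells, was at 0 in both transient libraries. Of the 10 genes, TFF1 alone was past the threshold, 1 of 5 above the floor for the controls and 1 of 4 for the SPRR1A libraries. The shares of all entities above the floor were 7.52% and 3.59%. As TFF1 chose the genes, this count is a description. The median difference was -0.12 over 5 genes between the controls, against 0.18 over all entities above the floor, and -0.02 over 4 genes between the SPRR1A libraries, against -0.08. The SD of the differences of well expressed entities was 0.42 for the pair of controls and 0.35 for the pair of SPRR1A libraries, wider than within a model.

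**Figure D3:**
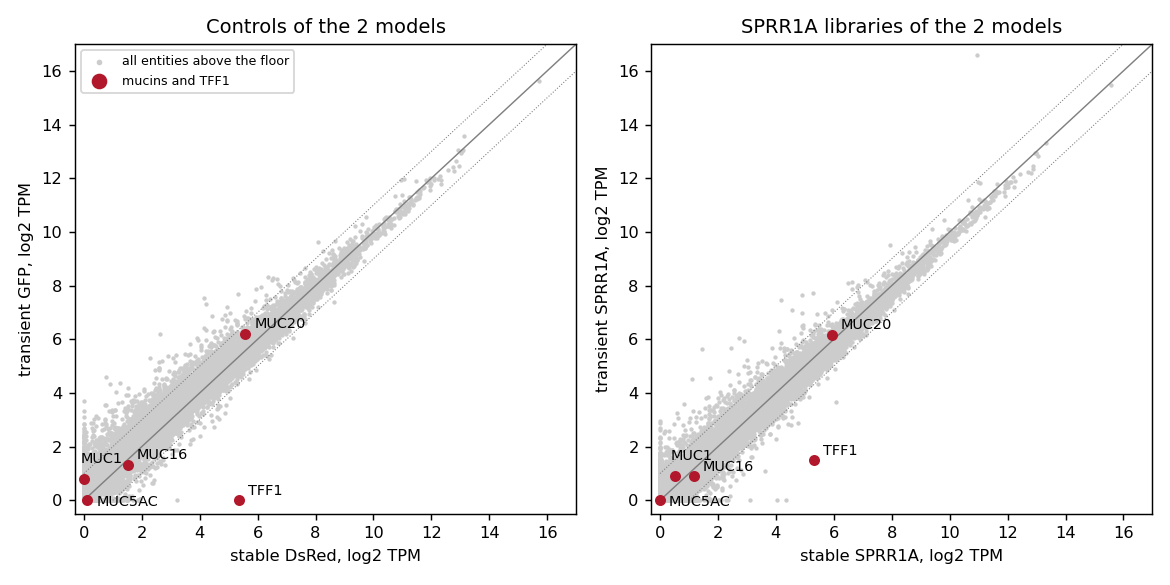
Log2 TPM of all entities above the floor (grey points) in the stable library (horizontal axis) and the transient library (vertical axis) of the controls (left) and of the SPRR1A cells (right), with equality as a solid and the 2-fold range as dotted lines. TFF1 (5.35 against 0, and 5.31 against 1.49) lies below the lines, and the mucins (also in red) lie within them.

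To describe the pattern of TFF1 over the 4 libraries, its higher transient value was set against its lower stable value. The libraries include the controls by which the genes were chosen, so a large gap for TFF1 follows in part from that choice. The gap was 3.81 on the log2 scale, the largest among 13538 entities other than small RNAs. The next was 1.90, for TNNC1, a troponin of slow muscle and heart. A gap above 1 in this direction was found for 23 entities, and the reverse gap, with both transient values above both stable ones, for 237. Among the 23 was SPDEF, a transcription factor known for the maturation of goblet cells, at place 10 with 1.22. MUC2, the gel-forming mucin of the intestine, was at place 19 with 1.04. The gap of MUC2 rests on a listed 0 in both transient libraries. Both are named because they stand in the lists of genes described below.

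The 5 entities nearest to TFF1 by the Euclidean distance of their centred log2 TPM over the 4 libraries were TNNC1 (distance 2.70), KRT4 (3.08), SPOCK2 (3.14), LRRC26 (3.16) and MVB12B (3.26). None came close, as the range of TFF1 over the libraries was 5.35. KRT4, a keratin of mucosal squamous epithelium, was at 6.07 (SPRR1A) and 5.05 (DsRed) in the stable and 3.68 (SPRR1A) and 3.80 (GFP) in the transient cells. LRRC26, an accessory subunit of a potassium channel found in secretory epithelia, was at 2.09, 2.05, 0 and 0.58. MUC1, with the second largest range (0.90), had many near patterns of low level, of which BTC, an EGF receptor ligand, was the nearest (distance 0.02), followed by ATP5S, ZBED6CL, HOXB3 and SERPINB8 (up to 0.07).

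**Figure D4:**
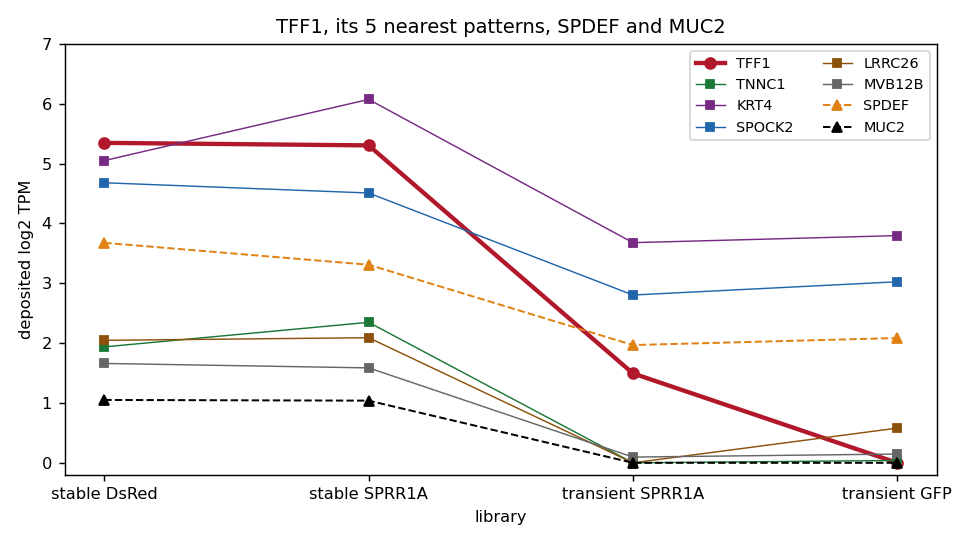
Deposited log2 TPM (vertical axis) of TFF1, the 5 entities nearest to it, SPDEF and MUC2 in each library (horizontal axis), with lines that only join the points of a gene. All are lower in the transient libraries, and TFF1 spans the widest range, from 5.35 and 5.31 to 1.49 and 0.

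The other mucin genes were mostly at the floor. Of 15 listed for this comparison 14 were found, and 10 were at 0 in all libraries, among them MUC6 of gastric glands. CD164, a widely expressed sialomucin, was the highest, at 6.11 with SPRR1A and 5.84 with DsRed in the stable cells, and 6.01 with SPRR1A and 6.16 with GFP in the transient cells. MUC2 was at 1.04 (SPRR1A) and 1.05 (DsRed) in the stable cells and at 0 in both transient libraries. It was the 1 gene of the list past the threshold, in the controls and in the SPRR1A libraries. Both calls rest on a listed 0 and were lost under log2(TPM + 1), where the differences were -0.62 and -0.61, and the call in the SPRR1A libraries was also lost after centring on the median of well expressed entities (-0.92).

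The enzymes that start the O-linked sugar chains on mucins, the GALNT family, were broadly expressed, with 12 of 19 above the floor. GALNT2 was the highest (6.61 to 6.84), followed by GALNT1 (5.79 to 6.18). None of the 12 was past the threshold in any of the 4 comparisons. Between the controls the median difference was 0.28, with 8 higher and 4 lower in GFP cells. Between the SPRR1A libraries it was -0.18, with 3 higher and 9 lower in the transient cells. The medians over all entities above the floor had the same signs, 0.18 and -0.08.

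Of the enzymes that extend and cap these chains, 19 of 23 were above the floor, with B4GALT5 (6.55 to 6.96) and B3GNT3 (6.14 to 6.22) the highest. GCNT4, which makes a branched core of the chain, was the 1 gene past the threshold, in both comparisons between the models. It was at 0.18 (SPRR1A) and 0.06 (DsRed) in the stable cells and at 1.29 (SPRR1A) and 1.57 (GFP) in the transient cells, so all its values were low. Under log2(TPM + 1) its differences were 0.96 for the controls and 0.69 for the SPRR1A libraries, and both calls were lost. None of this list passed within either model.

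Genes of mucus folding and secretion were above the floor in 8 of 19 cases. AGR2, an endoplasmic reticulum protein needed for mucin folding, had the highest level, at 8.58 with SPRR1A and 8.56 with DsRed in the stable cells, and 9.23 with SPRR1A and 9.32 with GFP in the transient cells. It was thus higher in the transient cells by 0.76 for the controls and 0.65 for the SPRR1A libraries, opposite to TFF1. Its homolog AGR3 was at 0.76 (SPRR1A) and 1.17 (DsRed) in the stable cells and at 0 in both transient libraries, and was past the threshold between the controls. This call rests on a listed 0 and was lost under log2(TPM + 1), where the difference was -0.70 in place of -1.17. ZG16B, a secreted lectin of mucous glands, lay between 5.18 and 5.30. Proteins of the mucus layer such as FCGBP, CLCA1 and ZG16 were at 0.

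Genes of the gastric surface and neck mucous cells other than the 10 were above the floor in 7 of 14 cases, with CAPN8 (4.30 to 4.78) and PSCA (3.62 to 3.99) the highest. Their median difference between transient and stable cells was 0.41 for the controls and 0.33 for the SPRR1A libraries. Over all entities above the floor it was 0.18 and -0.08. In both comparisons 5 of the 7 were higher in the transient cells, while 2, PSCA and TSPAN8, were lower like TFF1. ANXA10, an annexin of gastric epithelium, was at 2.78 (SPRR1A) and 1.72 (DsRed) in the stable and 3.26 (SPRR1A) and 3.29 (GFP) in the transient cells, and VSIG1, a gastric adhesion protein, at 1.42, 1.26, 1.96 and 2.27. Both were past the threshold between the controls with a higher value in GFP cells, VSIG1 by 1.01, or 0.89 after centring. In the stable model ANXA10 (log2 difference 1.06) and the tetraspanin TSPAN8 (1.48, from 0.26 to 1.74) were past it, and neither was past it under log2(TPM + 1), with 0.87 and 0.98. TSPAN8 was at 0 in both transient libraries, and was past the threshold between the SPRR1A libraries as well. GKN1, GKN2 and CLDN18, which are typical of the gastric surface, were at 0.

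Of 13 intestinal goblet cell genes 10 were at 0 in all libraries, and SPDEF, MUC2 and KLK1 were above it. SPDEF was at 3.31 with SPRR1A and 3.68 with DsRed in the stable cells, and 1.97 with SPRR1A and 2.09 with GFP in the transient cells. It was lower in the transient cells by both comparisons, 3.01-fold for the controls and 2.54-fold for the SPRR1A libraries, and stayed past the threshold after centring and under log2(TPM + 1). KLK1 was at 0.39 in transient SPRR1A cells and at 0 elsewhere.

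Transcription factors named in work on glandular differentiation were above the floor in 11 of 19 cases. ELF3 (6.33 to 6.77) and EHF (5.58 to 6.74), 2 epithelial ETS factors, had the highest means. KLF4, a factor of differentiating epithelia, was at 5.35 (SPRR1A) and 5.22 (DsRed) in the stable and 6.53 (SPRR1A) and 6.71 (GFP) in the transient cells. It was past the threshold with a higher value in the transient cells in both comparisons (1.48 and 1.18), and EHF was past it between the controls (1.16). SPDEF was the 1 factor past it in the direction of TFF1. The estrogen receptor gene ESR1, whose product is known to drive TFF1 in breast cancer cells, was at 0 in each library, as were HNF4A, PDX1, FOXA3, GATA4, HNF4G and ONECUT2.

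Proteins known to act with surface mucins or trefoil factors were above the floor in 13 of 14 cases. The galectins LGALS1 (10.63 to 11.32) and LGALS3 (7.05 to 7.45), which bind sugar chains, were the highest. ACKR3, a chemokine receptor of the scavenging type, was at 3.34 (SPRR1A) and 2.46 (DsRed) in the stable cells and at 4.77 (SPRR1A) and 4.87 (GFP) in the transient cells, 5.34-fold higher for the controls and 2.70-fold for the SPRR1A libraries. EGFR was past the threshold between the controls (2.23-fold higher in GFP cells) and differed by 0.16 between the SPRR1A libraries.

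Over these lists without the 10 genes and including the cell type markers, 10 of the 82 genes above the floor (12.2%) passed the threshold when the controls were compared, against 7.52% of all entities above it, and 7 of 82 (8.54%) when the SPRR1A libraries were, against 3.59%. After centring 9 and 6 of them remained past it, and 6 and 4 under log2(TPM + 1). Over all entities above the floor, 5.94% and 4.14% passed after centring, and 4.32% and 1.88% under log2(TPM + 1). Genes of the lists that passed only under these settings were not counted. One of the 7 was the acinar marker PRSS1, a trypsinogen gene with near-identical copies, at 0.79 and 1.86 in stable and transient SPRR1A cells. The summed TPM of the epithelial markers was 25893 (SPRR1A) and 26470 (DsRed) in the stable and 18253 (SPRR1A) and 20034 (GFP) in the transient cells, that is, lower in the transient cells like TFF1, though no marker of this list was past the threshold. This sum is mostly keratin RNA: KRT7, KRT8, KRT18, KRT19 and EPCAM were lower in the transient cells by both comparisons, whereas CDH1, the gene of E-cadherin, was higher (0.71 for the controls and 0.25 for the SPRR1A libraries). Both immune markers above the floor were higher in the transient cells as well, CD68 by 0.90 and 0.82 and LYZ, which epithelia also express, by 0.45 and 0.36. The part of these shifts in the result on TFF1 was not tested.

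**Figure D5:**
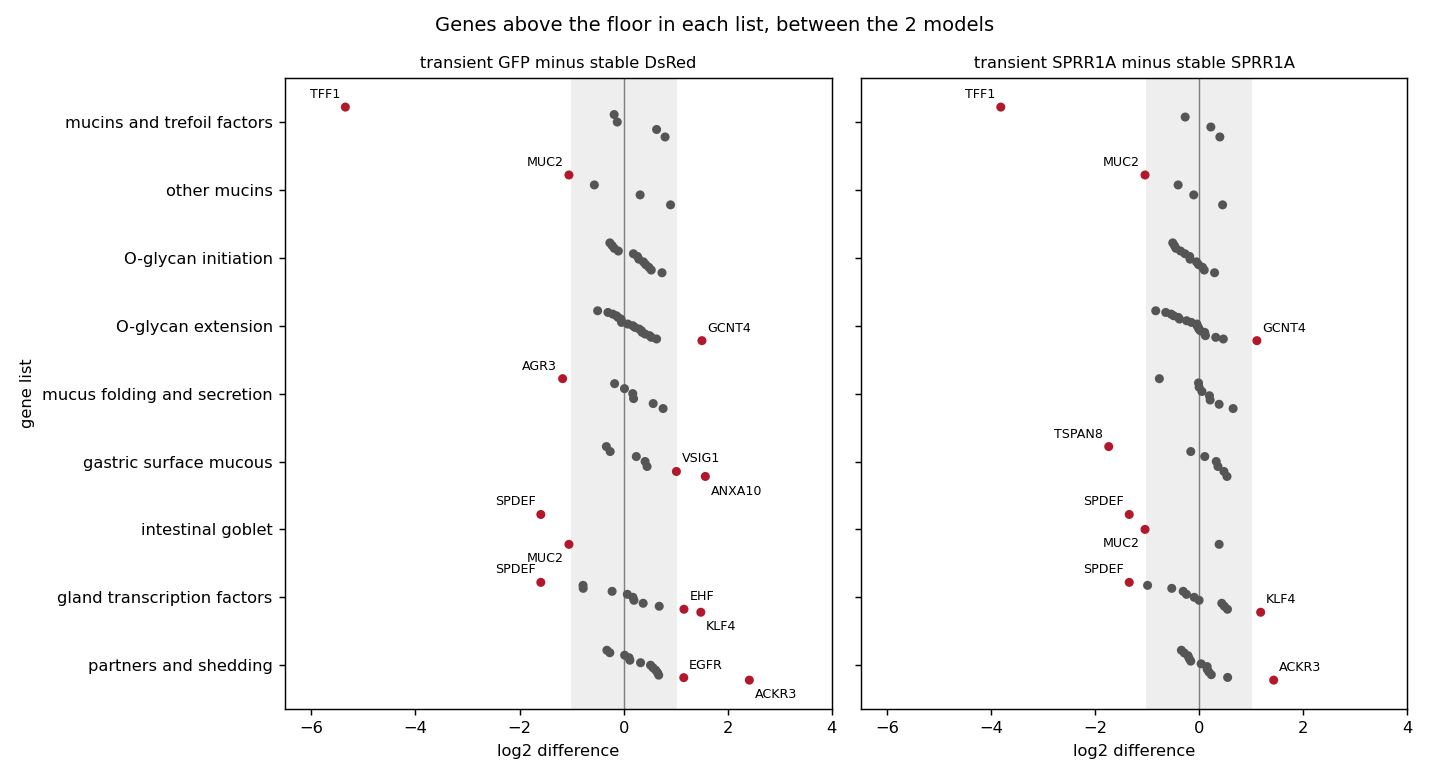
Log2 difference (horizontal axes) of each gene above the floor in 9 lists (vertical axis), between the controls (left) and between the SPRR1A libraries (right), with the 2-fold range shaded and genes past it in red and named. TFF1, at -5.35 and -3.81, lies far from all other genes, of which SPDEF and MUC2 are past the range on the same side in both panels (MUC2 no longer under log2(TPM + 1), with -0.62 and -0.61).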

How the data were processed

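Paired-end reads of stranded mRNA libraries were aligned by the authors with Strand NGS at default parameters (human transcriptome, hg38), and 1 log2 TPM value per entity and library was deposited, with no value below 0. Software version, annotation release and the treatment of reads shared between genes are not given in the sources used here.

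From these values, log2 differences between libraries were computed in 4 comparisons and set against a 2-fold threshold. Shares of all entities past it refer to those above 0 in at least 1 of both libraries. Well expressed entities reached a TPM of 5 in each library compared, and centring subtracted their median difference. A log2 difference from a listed 0 has no fixed meaning as a fold, so no fold is given for it. Named were the 10 genes, the genes of each list past the threshold (at most 4) and its 2 highest by mean, SPRR1A and the nearest patterns of the 2 genes of largest range. Other names, such as genes at 0, were picked after their values were seen. The 10 genes and all lists were chosen with earlier results of these data known. Calls were tested on simulated data, with known shifts beyond the threshold added to stable DsRed values well above the floor. Recovery of such shifts was all but fixed in advance. It checks the computation only, and says nothing on calls near the floor. Positions and promoters are from RefSeq (GRCh38.p14), and transcripts from GENCODE 44. Python 3.11.15, numpy 2.4.6, pandas 2.3.3 and matplotlib 3.10.9 were used.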

Additional observations from a re-analysis of the deposited data

Results flagged for a closer look

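In 2 of the 10 genes the value moved in opposite directions with SPRR1A in the stable and the transient cells. The share of all entities that did so was not computed. The median difference over all entities above the floor also had opposite signs, 0.07 in stable and -0.19 in transient cells. With 1 library per condition, the contrast between the models for these 2 genes was untested: the difference was not tested. For TFF1 the log2 difference was -0.04 in stable and 1.49 in transient cells, so that the stable difference minus the transient one was -1.54. MUC20 had 0.36 and -0.05, with 0.41 between them. For MUC20 the opposite directions did not hold after centring, which gave 0.30 and 0.14, and for TFF1 they did, with -0.10 and 1.68. The stable difference of TFF1 lay within the SD over well expressed entities (0.17). Its transient difference rests on a listed 0 with GFP, and was 0.93 in place of 1.49 under log2(TPM + 1).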

How the results depend on the processing

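No paired analysis was possible because the comparisons rest on 1 library a side with no test and the labels give no numbers that pair libraries. An additive fit of construct and model over the 4 libraries was not run. No library could be left out without losing a condition. As a scale for a shift, the SD of log2 differences over well expressed entities of the comparison was used, which does not describe genes near the floor. TFF1 stayed past the 2-fold threshold on the same side under each change of scale between the models, from -5.47 to -4.38 in the controls and from -3.81 to -3.41 in the SPRR1A libraries. A TPM filter in both libraries removes the gene by construction, so the number past the threshold became 0 in the controls and in the transient model at a TPM of at least 1 or 5, and 0 in the SPRR1A libraries at 5. In the transient model it was also 0 under log2(TPM + 1). With the floor set to a TPM of 0 before log2(TPM + 1), 2 genes passed in the stable model (MUC1 with 1.27 and MUC5AC with -1.06) and 3 in the controls, where 4.49% and 11.1% of all entities did. The median difference in the transient model was 0.21 after centring and 0.18 when the TPM total excluded SPRR1A. With a TPM of at least 5 it was 0.16 in stable cells and 0.63 in the controls, from the few genes left. Of 107 values of single genes, 87 moved by less than that SD, 20 by more and 0 changed sign while past the threshold. The TPM filters leave a kept value unchanged by construction. Only TFF1 was past the threshold, so a change of sign there could be counted for no other gene. Within the threshold, MUC20 in the transient model changed sign, from -0.05 to 0.14 after centring and 0.10 when the TPM total excluded SPRR1A. What depth limits cannot be said, as reads are unknown. Genes at 0 may have any TPM up to 1.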
